A study of Mus musculus with 12 samples.

Results

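The genotype by diet interaction asks whether islets that lack Sgpp2 answered a high-fat diet differently from wild-type islets. For every gene it is the diet difference in knockout (KO) islets, high-fat minus normal, minus the same difference in wild-type (WT) islets. It was computed for 15237 genes, out of 18193 with a probe set of their own, on 12 Affymetrix arrays, which are all the arrays of the series. The arrays form 4 groups of 3, all from mice of strain C57BL6: WT on a normal diet, KO on a normal diet, WT on a high-fat diet and KO on a high-fat diet. The KO is labelled Sgpp2-/-. The labels used here leave unstated how the allele was made, the sex and age of the mice, and what the high-fat diet held and how long it was fed. Nothing in the labels ties the 3 arrays of a group to separate animals, so the p-values reflect only how far these samples spread, and that spread may be technical. An interaction above 0 means that the high-fat diet raised a gene more, or lowered it less, in KO than in WT.

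The product of Sgpp2 sits in the membrane of the endoplasmic reticulum, where it dephosphorylates the signalling lipid sphingosine-1-phosphate (S1P) and so returns sphingosine to ceramide synthesis. Islets of mice on a high-fat diet make more insulin, which loads the folding machinery of the endoplasmic reticulum, and their beta-cells can re-enter the cell cycle. Cells answer misfolded protein in the cytosol through the heat shock response, in which the factor HSF1 induces chaperones of the HSP70, HSP90, HSP110 and small heat shock families. Misfolded protein in the endoplasmic reticulum is answered through the separate unfolded protein response.

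The probe set of Sgpp2 checked the genotype labels. It read 11.51 to 11.63 on the WT normal-diet arrays, 11.46 to 11.57 on the WT high-fat arrays, 10.99 to 11.17 on the KO normal-diet arrays and 11.02 to 11.12 on the KO high-fat arrays, all on the log2 scale. Every KO array lay below every WT array, and the KO values were not at background; whether the probes lie inside the deleted part is not known. Its interaction was 0.08 ± 0.10 (SE). The tissue is known only from the title, which speaks of islets; Ins2 (insulin) read 14.36 to 14.71 and Gcg (glucagon) 14.30 to 14.55 across the 12 arrays. The acinar enzyme gene Cpa1 read 13.74 to 14.21, so exocrine tissue was present in every group. Correlations between arrays of a group were 0.9912 to 0.9959, and WT high-fat replicate 2 and KO high-fat replicate 3 deviated most from their groups.

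No gene passed the interaction test. Of 15237 genes, 0 (0%) had an adjusted p under 0.05 in limma's moderated test with Benjamini-Hochberg adjustment, and the smallest adjusted p was 0.722. Without adjustment 758 genes (4.97%) had a p under 0.05, of which 456 (2.99%) were above 0 and 302 (1.98%) below. A share near 5% is what the threshold of 0.05 itself allows, so these 758 genes are described and not called. The median SE of an interaction was 0.17, against 0.12 for a difference between 2 groups. A gene with that SE would have needed an interaction of 1.46 on the log2 scale to be the single gene called; a gene with a smaller SE, or one of several passing together, would have needed less. The 4 simple comparisons gave the background: 12 genes (0.0788%) passed for the diet in WT, 0 (0%) for the diet in KO, 128 (0.84%) for KO against WT on the normal diet and 4 (0.0263%) on the high-fat diet. With any 1 array left out, the last of these counts lay between 0 and 272, highest without WT high-fat replicate 2, and that on the normal diet between 2 and 223, lowest without WT normal-diet replicate 1. Unadjusted, 1695 genes (11.1%) had a p under 0.05 for the diet in WT and 1173 (7.7%) for the diet in KO.

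The 758 genes were sorted by the diet difference in each genotype, using an unadjusted p under 0.05 as a mark and not as a call. A diet difference was marked in WT only for 381 genes, which may be described as lost in KO, and in KO only for 208, described as added. For 24 genes it was marked in both with opposite signs, for 6 it was in the same direction and smaller in KO, for 2 larger in KO, and for 137 it was marked in neither. Among the 381 lost genes 258 had an interaction above 0, so their WT difference was a decrease, and 123 had one below 0. Among the 208 added genes 98 were above 0 and 110 below. These counts take the KO arrays as unpaired; in a fit with a replicate block for KO, where same-numbered arrays deviated together, 898 genes had such a p, of which 429 were lost and 284 added.

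The 12 genes with the smallest p on either side of 0 were taken as the leading interaction genes, 24 in all. Their interactions ranged in size from 0.39 to 1.11 on the log2 scale with adjusted p between 0.722 and 0.836. In 22 of the 24 the diet difference had opposite signs in WT and KO. In 18 of the 24 the difference between KO and WT was larger on the normal diet than on the high-fat diet. Of the 24, 9 passed the adjusted test for KO against WT on the normal diet, while 0 did on the high-fat diet. The number of calls on the normal diet changed widely with 1 array left out, as given above. Since all 24 were chosen by the interaction, which contains these differences, the counts describe them and test nothing.

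**Figure D1:**
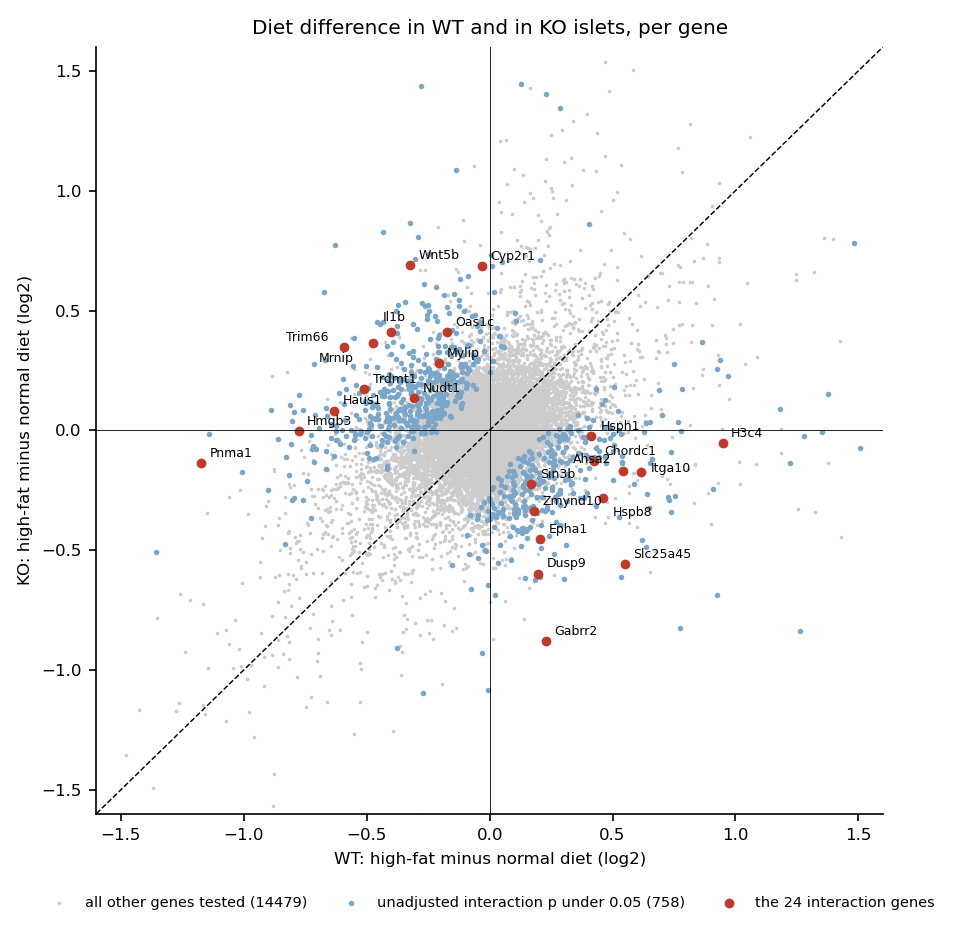
High-fat minus normal diet in WT (x axis) and in KO (y axis), both in log2 units, for the genes tested, with 15 genes outside the axes; blue points have an unadjusted interaction p under 0.05, red points are the 24 leading interaction genes, and the dashed line marks equal differences. The 12 leading genes above the line lie left of 0 in WT, and the 12 below it lie right of 0 in WT.

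Haus1, a subunit of the augmin complex of the mitotic spindle, had the smallest interaction p. It read 9.80, 9.64 and 9.73 on the WT normal-diet arrays and 9.0, 9.22 and 9.05 on the WT high-fat arrays, against 9.25, 9.20 and 9.31 for KO on the normal diet and 9.34, 9.28 and 9.38 for KO on the high-fat diet. The WT normal-diet arrays stood above the other 9. Its interaction was 0.71 ± 0.11 (SE, adjusted p = 0.722), made of -0.63 in WT and 0.08 in KO. Pnma1, an onconeural antigen gene, read 7.12, 6.25 and 6.62 in WT on the normal diet and 5.54, 5.56 and 5.36 on the high-fat diet. In KO it read 5.93, 5.80 and 5.95 on the normal diet and 5.83, 5.81 and 5.63 on the high-fat diet, so that its KO arrays overlapped between the diets. The interaction of Pnma1 was 1.04 ± 0.24 (SE). Hmgb3, a chromatin protein gene, went from 9.33, 9.01 and 9.12 to 8.39, 8.58 and 8.16 in WT, and read 8.76, 8.62 and 8.53 in KO on the normal diet and 8.63, 8.58 and 8.69 on the high-fat diet. Haus1, Pnma1 and Hmgb3 were 3 of the 12 genes called for the diet in WT, and all 3 are of the lost kind.

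Trdmt1, a tRNA methyltransferase gene, and Nudt1, which encodes the hydrolase that clears oxidised nucleotides, had the same layout at smaller size. Trdmt1 read 8.0, 8.02 and 8.19 in WT on the normal diet and between 7.39 and 7.75 on the other 9 arrays. Nudt1 read 8.64, 8.68 and 8.71 there and between 8.12 and 8.42 elsewhere. Their interactions were 0.68 and 0.44. In both genes the WT normal-diet group was the only group outside the range of the other 9 arrays. For Nudt1 the KO high-fat arrays also lay above the KO normal-diet arrays without overlap.

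In the next group of genes the KO arrays moved as well. Cyp2r1, a vitamin D hydroxylase, read 5.51, 5.52 and 5.43 in WT on the normal diet and 5.57, 5.38 and 5.4 on the high-fat diet. In KO it read 5.11, 4.82 and 5.19 on the normal diet and 5.83, 5.69 and 5.65 on the high-fat diet, so the KO diets did not overlap and the WT diets did. The interaction of Cyp2r1 was 0.72 ± 0.14 (SE), and its values lie close to the low-value filter of 5. Wnt5b, a secreted Wnt ligand, read 8.0, 8.07 and 8.19 in KO on the normal diet and 8.68, 8.73 and 8.92 on the high-fat diet, an increase of 0.69, against -0.32 in WT. In WT its high-fat arrays read 8.80, 8.31 and 8.14, and 1 of them was above the normal-diet arrays. Il1b, the gene of the cytokine interleukin-1 beta, read 7.91, 7.43 and 7.87 and then 7.40, 7.33 and 7.28 in WT, and 7.02, 7.41 and 7.31 and then 7.72, 7.60 and 7.65 in KO. Its diet difference was -0.40 in WT and 0.41 in KO, and in neither genotype did the arrays of the diets overlap.

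Of the other genes above 0, Mrnip, whose product binds the MRN complex of DNA repair, differed by -0.47 in WT and 0.36 in KO. Trim66, of a family of chromatin-binding TRIM proteins, differed by -0.59 and 0.35. Mylip, the ubiquitin ligase that marks the LDL receptor for degradation, differed by -0.21 and 0.28, and Oas1c, of the oligoadenylate synthetase family, by -0.17 and 0.41. All 4 differences were below 0 in WT and above 0 in KO, and none passed the adjusted test in either genotype.

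Below 0, Gabrr2 and Slc25a45 had the largest interactions, both -1.11. Gabrr2, a subunit of GABA receptors, read 5.51, 6.15 and 6.13 in KO on the normal diet and 4.84, 5.16 and 5.16 on the high-fat diet, while the 6 WT arrays lay between 4.66 and 5.16. The KO normal-diet group stood above the other 9 arrays, and KO exceeded WT by 1.13 on that diet (adjusted p = 0.0263). Epha1, an ephrin receptor, and Dusp9, a MAP kinase phosphatase, also stood highest in KO on the normal diet: Epha1 read 7.34, 7.53 and 7.64 there and between 6.58 and 7.16 elsewhere. Dusp9 read 5.35, 5.46 and 5.88 there and between 4.75 and 5.16 elsewhere. Gabrr2 and Dusp9 had mean levels of 5.2 and 5.1, close to the low-value filter of 5. Slc25a45, a mitochondrial carrier gene, read 6.40, 6.10 and 6.5 and then 7.07, 6.6 and 6.98 in WT, and 6.96, 6.79 and 6.45 and then 6.38, 6.10 and 6.05 in KO. Its arrays moved up without overlap in WT and down without overlap in KO.

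H3c4, a histone H3 gene whose near-identical copies can share probes, read 8.32, 8.38 and 7.96 in WT on the normal diet and between 8.85 and 9.42 on the other 9 arrays, with an interaction of -1.0. Itga10, a collagen-binding integrin chain, read 6.21, 6.03 and 6.29 and then 6.81, 6.67 and 6.89 in WT, and 6.56, 6.5 and 6.6 and then 6.33, 6.28 and 6.53 in KO. Zmynd10, needed to assemble dynein arms of cilia, had the smaller interaction of -0.52. Sin3b, a corepressor subunit, had -0.39 in its brightest probe set, and with the mean of all its probe sets the value was 0.12, of opposite sign. The remaining 4 genes, Hsph1, Hspb8, Chordc1 and Ahsa2, are chaperones or partners of chaperones and are taken up with their family.

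**Figure D2:**
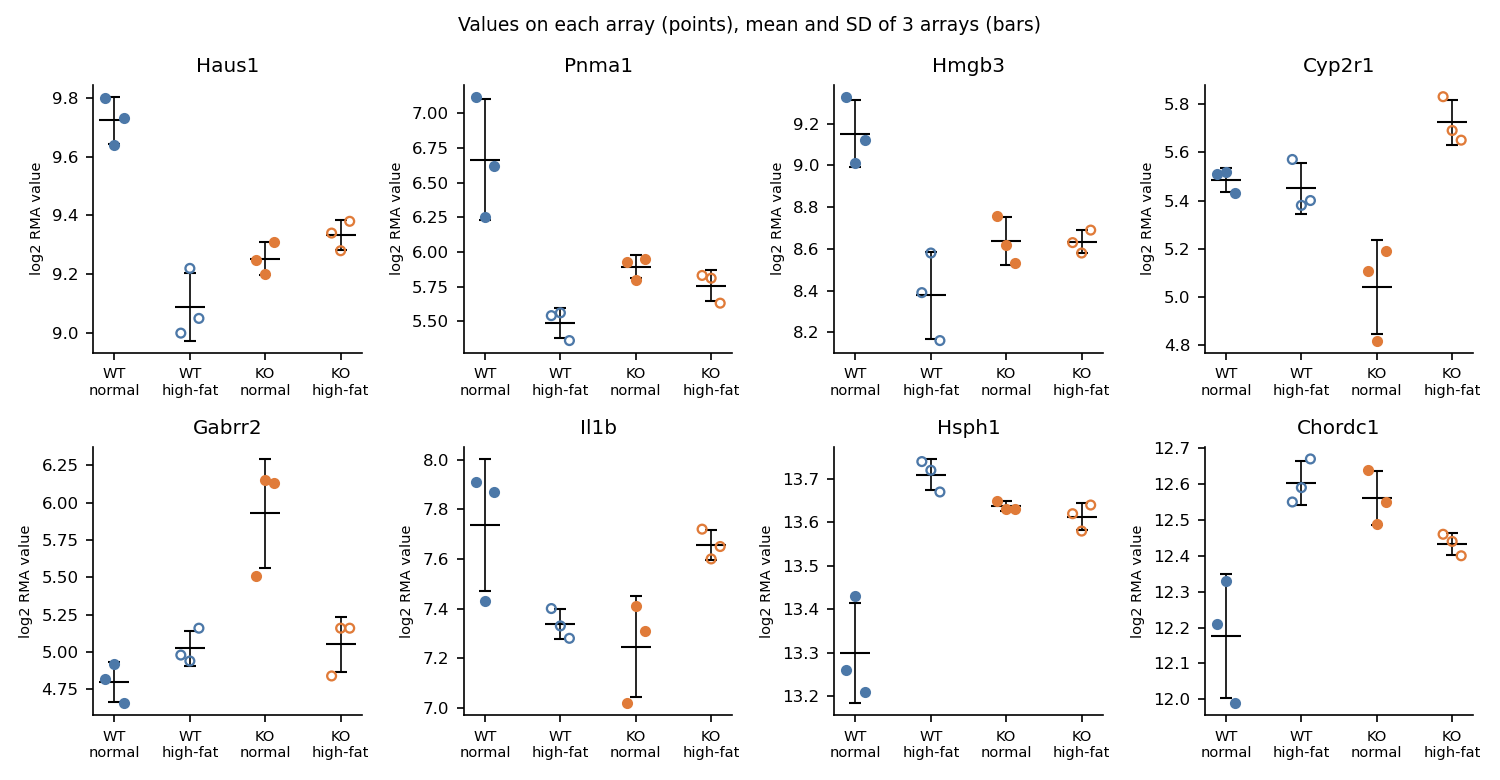
Log2 RMA values of 8 leading interaction genes on each array, 3 arrays per group, with blue for WT, orange for KO, filled points for the normal diet and open points for the high-fat diet; bars are the mean and SD. Haus1, Pnma1 and Hmgb3 are highest and Hsph1 and Chordc1 lowest in WT on the normal diet, Gabrr2 is highest and Cyp2r1 lowest in KO on the normal diet.

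Counted over all genes, the 3 arrays of a group lay outside the range of the other 9 for 764 genes (5.01%) in WT on the normal diet, 531 (3.48%) in KO on the normal diet, 277 (1.82%) in WT on the high-fat diet and 172 (1.13%) in KO on the high-fat diet. Among the 24 leading genes the counts were 9, 5, 3 and 3. This count was added after the values had been seen. Both normal-diet groups stood apart more often than the high-fat groups, over all genes and among the 24, which were chosen by the interaction. A group whose arrays scatter more can less easily lie wholly outside the others. The median size of the deviation from the group mean was 0.063 to 0.083 on normal-diet arrays and 0.079 to 0.113 on high-fat arrays. The part of this scatter in the counts was not tested.

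Further probe sets gave a check that the choice of the 24 did not use, since each gene had been represented by its brightest probe set. Beyond those, 10 more probe sets above the low-value filter belonged to 6 of the 24 genes. In 6 of the 10 the interaction had the sign of the main probe set, 3 of these with an unadjusted p under 0.05, and 2 had the opposite sign with such a p, both in Sin3b. The second probe set of Hsph1 gave -1.29 (unadjusted p = 8.54e-05), those of Hspb8 -0.52 and -0.27, that of Wnt5b 0.57, that of Trdmt1 0.38 and that of Epha1 0.06. Probe sets of a gene share the same arrays, so they repeat the measurement of a transcript and not the experiment.

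The chaperone genes showed the most one-sided pattern of the 23 functional lists. Of 19 heat shock and folding genes tested, 0 had an interaction above 0, where 53.8% of all genes did, and the median was -0.35 against 0.02 over all genes. Unadjusted, 7 of the 19 were below 0 with a p under 0.05, against 1.98% of all genes, and 0 of 19 passed the adjusted test. The median diet difference was 0.31 in WT and -0.10 in KO. In WT the high-fat arrays lay wholly above the normal-diet arrays for 8 of 19, against 5.63% of all genes; in KO this held for 0 of 19, against 6.32%. KO high-fat arrays lay wholly below the KO normal-diet arrays for 2 of 19, against 6.71% of all genes. Because the members and lists were chosen with earlier results of these data known, the counts are a description. The list median stayed between -0.31 and -0.43 with any 1 array left out.

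Hsph1, the HSP110 that recharges HSP70, read 13.26, 13.43 and 13.21 in WT on the normal diet and 13.74, 13.72 and 13.67 on the high-fat diet. In KO it read 13.65, 13.63 and 13.63 on the normal diet and 13.62, 13.58 and 13.64 on the high-fat diet. The WT normal-diet arrays lay below the other 9 and the WT high-fat arrays above them, with an interaction of -0.44 ± 0.10 (SE, adjusted p = 0.836). Hspa8, the constitutive HSP70, and Hspe1, the mitochondrial co-chaperonin, also had their 3 lowest arrays in WT on the normal diet. That made 3 of 19 genes, against 1.12% of all genes.

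Hspb8, a small heat shock protein that works with Bag3, read 9.70, 9.91 and 9.99 and then 10.37, 10.22 and 10.39 in WT. In KO it read 10.33, 10.10 and 10.28 on the normal diet and 10.24, 9.87 and 9.75 on the high-fat diet, with 1 high-fat array inside the normal-diet range. Its interaction was -0.74 ± 0.18 (SE). Stip1, the adaptor between HSP70 and HSP90, read 10.15, 10.12 and 9.83 and then 10.69, 10.16 and 10.88 in WT, and 10.25, 10.32 and 10.18 and then 10.19, 10.42 and 9.82 in KO. WT high-fat replicate 2 lay close to the normal-diet arrays for Stip1, and also for Hspb1, Ahsa1 and Fkbp4. Hspd1, the mitochondrial chaperonin, had -0.33 ± 0.13, Ahsa1, an activator of HSP90, -0.46 ± 0.19, Dnajb1, a J-domain partner of HSP70, -0.71 ± 0.32, and Hsp90aa1, the inducible HSP90, -0.35 ± 0.16.

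The stress-inducible HSP70 genes Hspa1a and Hspa1b are near-identical copies that can share probes, so their values are not independent. Hspa1b read 10.43, 10.76 and 10.32 in WT on the normal diet and 10.24, 11.23 and 11.83 on the high-fat diet, a spread wider than the difference of 0.60. In KO it read 11.57, 11.70 and 11.93 and then 11.66, 11.32 and 11.00. KO exceeded WT by 1.23 on the normal diet and by 0.23 on the high-fat diet. Chordc1 and Ahsa2, which were not on the list, encode a HSP90-binding protein and a relative of Ahsa1. Chordc1 read 12.21, 12.33 and 11.99 and then 12.55, 12.59 and 12.67 in WT, and 12.64, 12.49 and 12.55 and then 12.46, 12.44 and 12.40 in KO, so it moved up in WT and down in KO without overlap. Ahsa2 read 11.28, 11.38 and 11.02 and then 11.68, 11.79 and 11.83 in WT, and 11.69, 11.77 and 11.70 and then 11.64, 11.55 and 11.47 in KO.

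**Figure D3:**
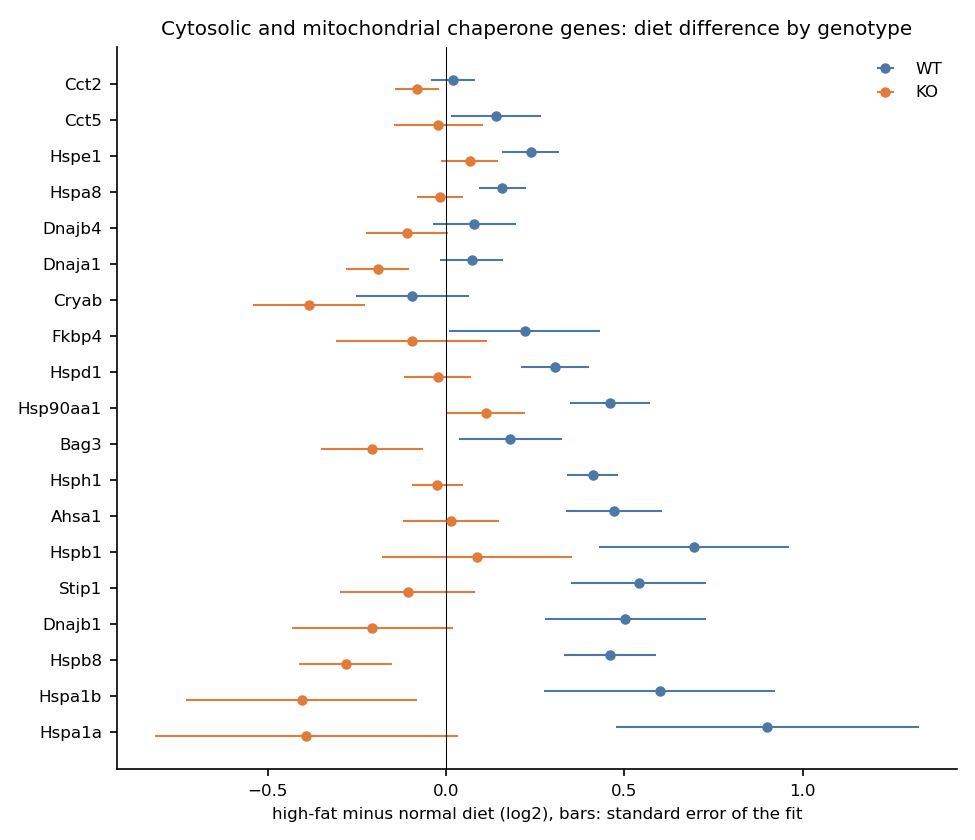
Diet difference, high-fat minus normal in log2 units, of the 19 heat shock and folding genes tested in WT (blue) and KO (orange), ordered by interaction, with bars for the SE of the fit. The WT point lies right of the KO point for each gene, and the bars of the genotypes overlap for Cct2, Cct5, Dnajb4, Cryab and Fkbp4.

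HSF1 binds repeats of the unit nGAAn in alternating orientation, so the promoters of these genes were read for such repeats, and the stretches that hold one are shown because the members moved together. RefSeq promoter windows on GRCm38.p6 were available for 16 of the 19 genes, and the 250 bases before the start were searched on both strands. The inverted pair GAANNTTC was present for 8 of 16 genes (50.0%), against 750 of 12181 tested genes with a window (6.16%). The longer heat shock element, which adds one more GAA unit to that pair and so overlaps it, was present for 2 of 16 (12.5%), against 0.46%. The list holds genes of the heat shock response, so a high share can follow from its membership and tests nothing about the diet. The same holds for the motif shares of the lists below. No such repeat was found in the windows of the leading interaction genes Hsph1, Hspb8, Chordc1 and Ahsa2. The letters in capitals mark the pair or the longer element, 5′ to 3′ on the strand of the gene.
Hspa1a, chr17:34972233-34972280, minus strand, with the same letters in Hspa1b at chr17:34959315-34959362: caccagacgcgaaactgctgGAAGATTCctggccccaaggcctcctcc
Hspb1, chr5:135887782-135887849, plus strand, with the pair at both marked places: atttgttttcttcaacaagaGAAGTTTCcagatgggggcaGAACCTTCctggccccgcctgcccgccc
Fkbp4, chr6:128438780-128438827, minus strand: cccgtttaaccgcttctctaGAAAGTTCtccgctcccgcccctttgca
Dnaja1, chr4:40722324-40722371, plus strand: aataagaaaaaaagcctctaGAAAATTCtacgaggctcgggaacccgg
Hspe1, chr1:55088053-55088082, plus strand, shared with Hspd1 on the minus strand: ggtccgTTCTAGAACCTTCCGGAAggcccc
Cct2, chr10:117063404-117063423, minus strand, in the window of its second start: agtgaaGAAGTTTCtagcag
The Hspe1 stretch holds 1 pair inside 2 overlapping longer elements, and was found in the windows of genes on opposite strands. The 8 genes with a marked repeat had a median interaction of -0.32 and the 8 with a window and no repeat -0.45, so the repeat did not separate the larger values from the smaller ones. A match is a description of the letters and shows no binding.

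The unfolded protein response moved less. Of 41 genes 11 were above 0, the median was -0.10, and 0 passed the adjusted test. The median diet difference was 0.103 in WT, with 35 of 41 genes above 0, and 0.015 in KO, with 23 of 41. High-fat arrays lay wholly above normal-diet arrays for 6 of 41 in WT, against 5.63% of all genes. In KO this also held for 6 of 41, against 6.32%. They lay wholly below for 0 of 41 in WT, and for 3 of 41 in KO, against 6.71% of all genes in KO. Herpud1, which helps to remove misfolded protein from the endoplasmic reticulum, was the 1 member with an unadjusted p under 0.05: it read 12.59, 12.68 and 12.73 and then 13.25, 12.96 and 13.30 in WT, and 12.67, 12.68 and 12.58 and then 12.91, 12.85 and 12.72 in KO. Both genotypes were higher on the high-fat diet without overlap, by 0.51 and 0.18, with an interaction of -0.33 ± 0.14 (SE, adjusted p = 0.964). The co-chaperones Dnajb9 and Dnajb11 had -0.20 and -0.27, the secreted factor Manf -0.28 and the sensor kinase Eif2ak3 (PERK) -0.35. The list median was -0.003 without KO normal-diet replicate 2, -0.152 without KO normal-diet replicate 1 and -0.05 without WT high-fat replicate 1 or 3. The ER stress response element, a CCAAT box and a CCACG box a fixed distance apart, was found in the 250-base windows of 10 of 36 members (27.8%) against 0.131% of all windows, and in 0 of the 16 heat shock genes. It is printed, in capitals, for the main ER chaperone BiP (Hspa5) and the ubiquitin ligase Syvn1, because it is the known element of this response.
Hspa5, chr2:34772010-34772058, plus strand: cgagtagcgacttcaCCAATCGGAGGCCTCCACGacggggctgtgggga
Syvn1, chr19:6046517-6046565, plus strand: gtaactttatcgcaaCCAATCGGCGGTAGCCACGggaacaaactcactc

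Genes of DNA replication and mitosis leaned the other way. Of 39 genes 36 had an interaction above 0, the median was 0.57, and 3 had an unadjusted p under 0.05, against 2.99% of all genes; 0 passed the adjusted test. The median diet difference was 0.09 in WT and 0.48 in KO, and 20 of 39 genes had KO high-fat arrays wholly above KO normal-diet arrays, against 6.32% of all genes. In WT the number was 0. Ube2c, the ubiquitin-conjugating enzyme of the anaphase-promoting complex, read 7.0, 6.69 and 7.10 and then 7.58, 8.22 and 9.03 in KO, and 8.09, 7.12 and 7.03 and then 7.69, 7.80 and 7.62 in WT. Its interaction was 1.06 ± 0.48 (SE, adjusted p = 0.982).

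Single arrays carried much of this list. Its score, the mean deviation of the members from their 12-array means, was 0.866 on KO high-fat replicate 3 and 0.464 on WT normal-diet replicate 1, and between -0.353 and 0.235 on the other 10. The median interaction was 0.26 without KO high-fat replicate 3, 0.27 without WT normal-diet replicate 1 and 0.81 at most, without KO high-fat replicate 1. The licensing factor Cdt1 read 9.39 on WT normal-diet replicate 1 and 8.25 and 8.26 on the other two, and its interaction was 0.81; Mcm10, which loads the replication polymerase, read 6.59 there and 5.73 and 5.79. The transcription factor E2f2 of the G1 list had 0.65 ± 0.17 (SE, adjusted p = 0.836), reading 8.33, 7.92 and 7.94 and then 7.52, 7.70 and 7.74 in WT, and 7.70, 7.81 and 7.70 and then 7.98, 7.83 and 8.11 in KO. Its arrays did not overlap between the diets in either genotype. A second, dimmer probe set of E2f2 did not repeat this, with an interaction of 0.02, from -0.09 in WT and -0.06 in KO. Promoter windows held the CCAAT box for 24 of 32 members (75.0%) against 39.4% of all windows, and the E2F site TTTCGCGC for 3 (9.38%) against 0.534%, on either strand.

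**Figure D4:**
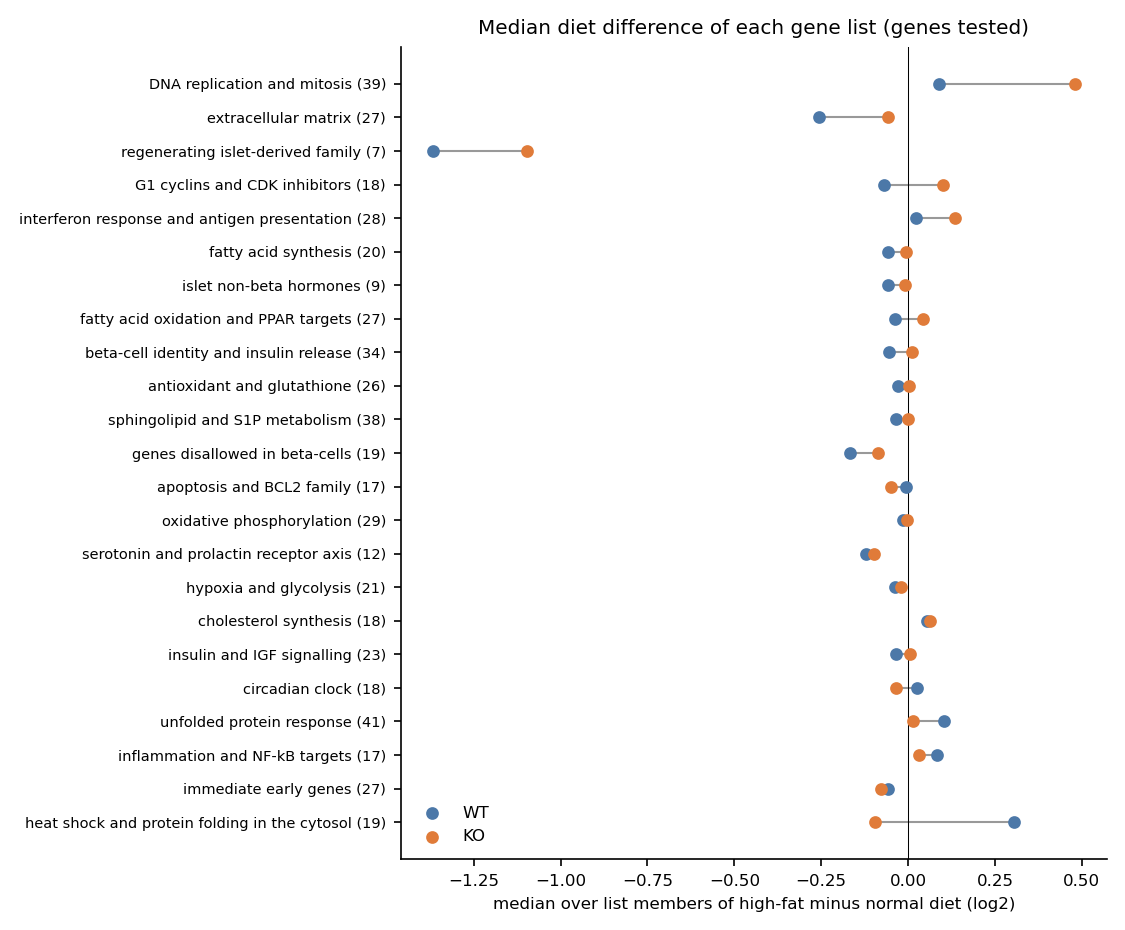
Median over the tested members of each of 23 functional lists of the diet difference, high-fat minus normal in log2 units, in WT (blue) and KO (orange); lists are ordered by their median interaction and the number of genes tested is in brackets. Heat shock genes have the lowest and replication genes the highest median interaction, and the regenerating islet-derived family lies far below 0 in both genotypes.

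The 12 genes called for the diet in WT show what became of the measurable diet response. In WT, Slc10a6, Hbb-bh1 and Tle1 rose (3 of 15237, 0.0197%) and Reg2, Fam163a, Rasgrp1, Pnma1, Tmem40, Tesc, Hmgb3, Higd1a and Haus1 fell (9 of 15237, 0.0591%). In KO 11 of the 12 had the same sign, and all 12 were smaller; the median along the WT direction was 0.88 in WT and 0.37 in KO. The genes were chosen for their WT values, which favours larger values in WT, so this is no test of a weaker response. The number of calls was not stable: with any 1 array left out it lay between 0 and 11. It was 0 without WT normal-diet replicate 1 or 3, KO normal-diet replicate 2 or 3, or WT high-fat replicate 1 or 2, 2 without WT normal-diet replicate 2 or WT high-fat replicate 3, and 6 without KO high-fat replicate 1. KO arrays enter this comparison only through the shared estimate of the spread. The differences themselves kept their sign in all 287 values computed under alternatives. With any 1 array left out, Haus1 stayed between -0.697 and -0.586 and Pnma1 between -1.38 and -0.946. After cyclic loess scaling 7 rose and 11 fell.

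Reg2, a secreted lectin of the regenerating islet-derived family, had the largest difference. It read 12.74, 12.04 and 13.97 in WT on the normal diet and 9.25, 8.12 and 8.83 on the high-fat diet, a fall of -4.19 ± 0.63 (SE, adjusted p = 0.0444). In KO it read 13.37, 12.64 and 11.19 and then 11.69, 10.09 and 10.44, a difference of -1.66 (adjusted p = 0.562) with overlap between the diets. It was lower on the high-fat array of each of the 3 same-numbered KO pairs, and with the replicate block in KO its adjusted p was 0.38. The interaction of Reg2 was 2.53 ± 0.88 (SE, adjusted p = 0.922). Its relatives Reg3b and Reg3a differed by -3.10 and -3.11 in WT and by -1.10 and -2.05 in KO. Over the 7 family members the median was -1.37 in WT and -1.10 in KO, with 5 interactions above 0.

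Slc10a6, a carrier of sulphated steroids, read 4.22, 4.68 and 4.28 and then 6.09, 5.87 and 5.67 in WT, and 5.2, 4.89 and 5.07 and then 5.51, 5.99 and 6.01 in KO. It was 1.48 higher in WT (adjusted p = 0.0325) and 0.78 higher in KO (adjusted p = 0.362), both without overlap. Its WT normal-diet arrays lay below the low-value filter of 5. Rasgrp1, an exchange factor for Ras, had -1.35 in WT and -0.78 in KO, and Fam163a -1.36 and -0.51. Tesc, a calcium-binding protein, had -0.83 and -0.47, and Higd1a, a mitochondrial protein induced by hypoxia, -0.73 and -0.37. Tle1, a Groucho corepressor, had 0.69 and 0.17. These 6 kept the sign of WT in KO, at a smaller size.

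In KO no gene was called for the diet, and the leading genes mostly moved in the same direction in WT. Of those with the smallest p above 0, Inpp4b, a phosphoinositide phosphatase, had 0.60 in KO and 0.37 in WT, Pik3cg, a catalytic subunit of PI3-kinase, 0.63 and 0.34, and Clvs2 0.86 and 0.41. Of those below 0, the chemokine gene Cxcl14 had -0.70 and -0.78, the imprinted gene Mest -0.40 and -0.31, and Npr3, the clearance receptor of natriuretic peptides, -0.91 and -0.38. The exceptions were Cyp2r1 and Gabrr2, described above, and the protease gene Klk6, which hardly moved in WT (-0.66 in KO and -0.07 in WT). Clvs2 and Npr3, though of the same sign, also had an unadjusted interaction p under 0.05, like these exceptions. Clvs2 and Cxcl14 had mean levels of 4.73 and 5.15, near the low-value filter of 5. Each of the genes named in this paragraph had an adjusted p of 0.306 in KO.

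The diet response of each genotype was then followed in the other. The 100 genes with the smallest diet p in WT had the same sign in KO for 76, and their median along the WT direction went from 0.64 in WT to 0.17 in KO. The 100 chosen in KO had the same sign in WT for 80, and their median went from 0.57 to 0.23. Over all 15237 genes the sign was the same for 59.8%. A gene chosen in one genotype shrinks in the other by the choice itself, and it did so in both directions; the arrays of WT and KO are separate. With an unadjusted p under 0.05 and the same sign, 29 of the 100 were found in KO and 38 of the 100 in WT. Across genes, which are not independent replicates, the diet differences of WT and KO correlated with a Pearson r of 0.418 and a Spearman coefficient of 0.304 (n = 15237 genes).

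In the other functional lists 0 members passed the adjusted test. Beta-cell identity and insulin release had 25 of 34 above 0 with a median of 0.04; the incretin receptor gene Gipr had 0.37 ± 0.17 and the transcription factor Pdx1 0.21 ± 0.11. Among 38 genes of sphingolipid and S1P metabolism, the pathway of Sgpp2, 23 were above 0 and the median was 0.02. Fa2h, which hydroxylates the fatty acids of ceramides, read 6.31, 5.79 and 6.08 and then 5.30, 5.18 and 5.26 in WT, and 4.97, 5.55 and 5.0 and then 5.39, 5.14 and 5.30 in KO, an interaction of 0.92 ± 0.23 (SE, adjusted p = 0.836). The mean level of Fa2h was 5.44, near the low-value filter of 5. The S1P receptor S1pr1 had -0.53 ± 0.21, with 0.44 in WT and -0.09 in KO. The other members of this list had p above 0.05 without adjustment.

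Among inflammatory genes, 7 of 17 were above 0 with a median of -0.11, which was -0.018 without KO high-fat replicate 2, and Il1b and the chemokine Ccl5 lay on opposite sides. Ccl5 read 6.46, 6.03 and 6.65 and then 8.16, 8.08 and 6.56 in WT, and 7.11, 7.28 and 7.44 and then 7.93, 6.37 and 7.12 in KO, with overlap in both genotypes. Interferon and antigen presentation genes had 19 of 28 above 0 and a median of 0.08, which was -0.013 with 14 of 28 above 0 without KO high-fat replicate 1 and 0.003 without WT high-fat replicate 3; the immunoproteasome subunits Psmb8 and Psmb9 had 0.62 and 0.67. Immediate early genes had 10 of 27 above 0 and a median of -0.16, which was -0.054 without WT normal-diet replicate 2, with the nuclear receptor Nr4a3 at -0.64. Tph2, a serotonin-synthesising enzyme, had 1.13 ± 0.40, from -1.14 in WT and -0.01 in KO. In the BCL2 family the death-promoting members Bcl2l11 and Bid had 0.41 and 0.46, in a list with a median of 0.02 and 9 of 17 above 0. Further probe sets of Bcl2l11 ranged from -0.01 to 0.44, and a dimmer one of Bid gave 0.08. Oxidative phosphorylation (15 of 29 above 0, median 0.01) and cholesterol synthesis (9 of 18 above 0, median -0.002) were the most evenly divided.

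Cell type markers were read beside these lists. In whole islets, fewer cells of a type and less RNA per cell cannot be told apart. Beta-cell markers had a median interaction of 0.02 (5 of 8 above 0) and alpha-cell markers 0.24 (4 of 4), or 0.147 without KO high-fat replicate 2. Stromal markers had 0.34 (8 of 10) and extracellular matrix genes 0.23 (23 of 27), with WT diet medians of -0.40 and -0.26 and KO medians of -0.06 and -0.06. The stromal median was 0.11 without WT normal-diet replicate 3, 0.15 without KO high-fat replicate 1, 0.205 without WT high-fat replicate 3 and 0.62 without WT normal-diet replicate 2; the matrix median was 0.05 and 0.09 without the first 2 of these arrays and 0.39 without the last. Col6a3, a collagen VI chain, had 0.76 ± 0.39, and 0.414 without WT high-fat replicate 2. Among 7 B and plasma cell markers 1 was above 0 and the median was -0.40, or -0.247 without WT high-fat replicate 2, with Ms4a1 (CD20) at -0.67 ± 0.20.

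Neutrophil and liver markers had large medians that rest on a few genes and arrays. Only 2 of 7 neutrophil markers passed the low-value filter, S100a8 and S100a9, the subunits of calprotectin, with interactions of 1.11 and 1.07, on the side of Il1b. S100a8 read 5.61, 5.68 and 6.89 and then 5.94, 4.94 and 4.66 in WT, and 5.18, 6.94 and 6.75 and then 6.15, 5.74 and 7.66 in KO, with overlap in both genotypes. Their median of 1.09 lay between 0.347, without KO normal-diet replicate 1, and 1.49 with any 1 array left out. Of 5 liver markers 2 were above 0 and the median was -0.35, near that of the heat shock genes. The apolipoprotein genes Apoa1 and Apob had -1.51 and -1.30. Apoa1 read 8.58, 9.05 and 8.41 and then 11.36, 8.74 and 10.06 in WT, and 10.03, 8.43 and 8.22 and then 8.83, 8.75 and 8.69 in KO, so it was high on WT high-fat replicates 1 and 3 and KO normal-diet replicate 1. The liver median was -0.122 without KO high-fat replicate 1 and -0.547 without KO high-fat replicate 2.

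Acinar markers had 1 of 15 above 0 and a median of -0.18, the side of the heat shock genes. Their mean level was 12.85 to 13.12 in WT on the normal diet, 12.72 to 13.16 in WT on the high-fat diet, 13.08 to 13.34 in KO on the normal diet and 12.97 to 13.03 in KO on the high-fat diet. For 11 of 15 the KO high-fat arrays lay wholly below the KO normal-diet arrays, against 6.71% of all genes, and in WT the diets overlapped in this sum. The acinar median was -0.12 without WT normal-diet replicate 1 or WT high-fat replicate 1. The acinar regulators Rbpjl and Bhlha15 had -0.76 ± 0.28 and -0.48 ± 0.20. The part of acinar, stromal, immune or liver cells in any interaction above was not tested.

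**Figure D5:**
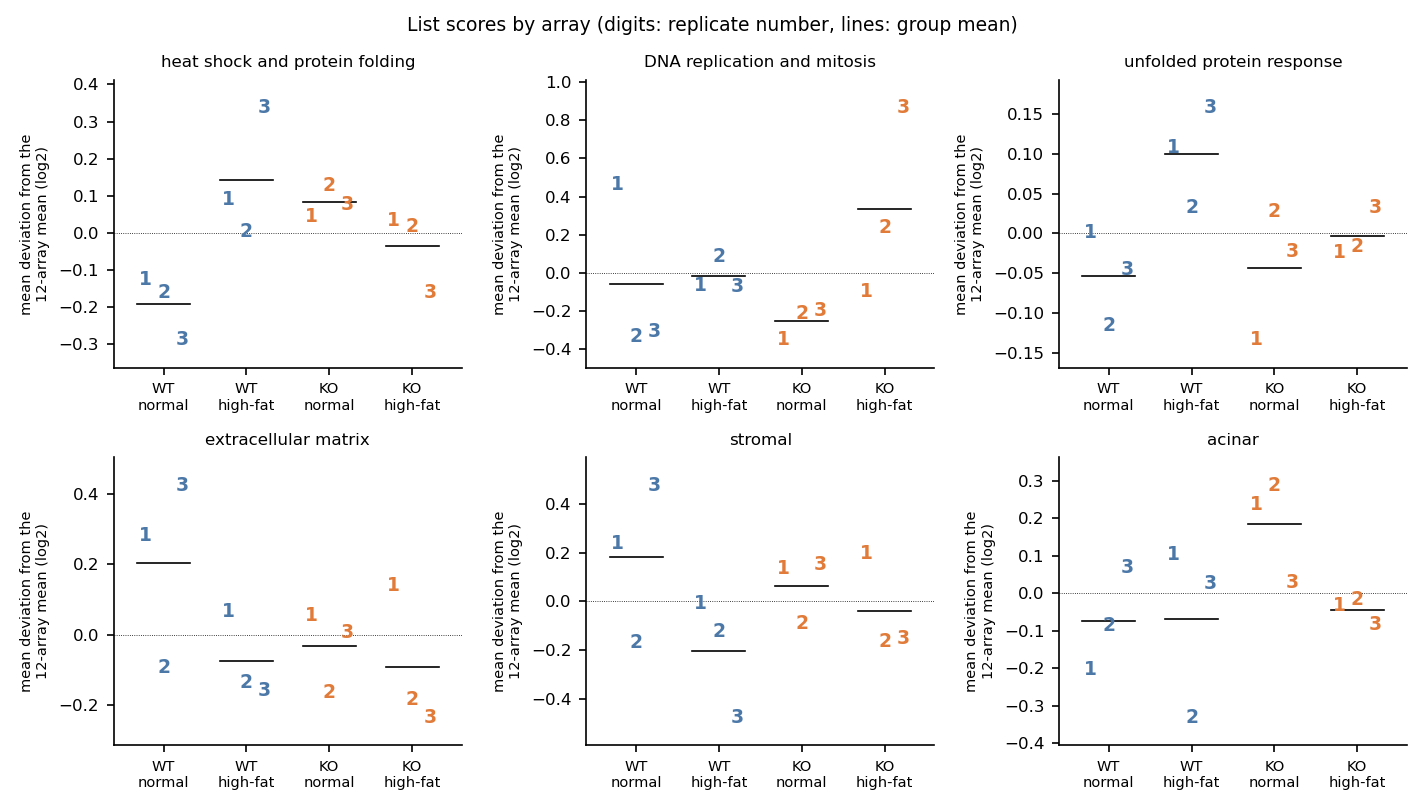
Score of 6 lists on each array, as the mean deviation of the tested members from their 12-array means in log2 units; digits are replicate numbers and lines are group means. Heat shock scores are -0.288 to -0.126 in WT on the normal diet and 0.004 to 0.337 on the high-fat diet, and in KO 0.045 to 0.127 and then -0.159 to 0.034; the replication score is highest on KO high-fat replicate 3.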

How the data were processed

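Total RNA was hybridised to 12 Affymetrix mouse expression arrays, 1 per sample. The log2 values deposited by the authors are RMA summaries per probe set; per the submitters' processing notes the software was Partek 6.6, and the probe definitions behind the summaries are unstated there. RMA equalises the arrays' distributions, so a shift of most genes would be hidden. Values ran from 2.6 to 15.3. The number of arrays limits the precision.

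Of 45101 probe sets, 64 were controls, 34945 had 1 symbol, 932 several and 9160 were not listed. Each gene took its brightest probe set over all arrays; 2956 genes not above 5 on at least 3 arrays were left out. Limma 3.58.1 (R 4.3.3) fitted 1 coefficient per group (8 residual degrees of freedom, 11.08 after moderation), two-sided, with Benjamini-Hochberg adjustment over all genes and a threshold of 0.05; every adjusted p is from this fit. The fit was run on simulated data with independent noise and known shifts added in KO on the high-fat diet. The simulated arrays shared no deviations, so this was a check of the computation and not of its behaviour on these arrays. Lists are described by counts and medians. The genes, members and lists were chosen with earlier results of these data known. Named are the 12 genes with the smallest interaction p on each side, 5 per side for each diet response with all genes called in WT, up to 4 members per list and Sgpp2; symbols without a gene name are skipped. Chordc1 and Ahsa2 were set beside the heat shock list, and further members of the heat shock and unfolded protein response lists were named, after their values were seen; Ins2 and Cpa1 are named as cell type markers.

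KO arrays with the same number shared deviations from their group means (r = 0.29, 0.38 and 0.14 for numbers 1, 2 and 3), while WT pairs did not (0.05, 0.10 and -0.16). Between WT and KO, same-numbered arrays had r of -0.26, -0.10 and 0.05 on the normal diet and -0.05, -0.51 and -0.35 on the high-fat diet. No label explains the numbers, so whether the KO arrays are paired is not known. The inverted pair GAANNTTC was searched in addition to the planned motifs, with the list's values known. Promoters were read from RefSeq windows with Python 3.11.15, and figures drawn with matplotlib 3.10.9.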

Additional observations from a re-analysis of the deposited data

Results flagged for a closer look

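The mean score of the heat shock list was higher on every WT high-fat array and lower on every KO high-fat array than on the normal-diet arrays of the same genotype, with a median interaction of -0.348. In KO the gap was narrow, from 0.034 at most on the high-fat diet to 0.045 at least on the normal diet. Gene by gene the arrays moved upward without overlap in WT for 8 of 19 genes, against 5.63% of all genes. They moved downward without overlap in KO for 2 of 19, against 6.71% of all genes. The difference between the genotypes was not tested for the list as a whole. Of the 24 leading interaction genes, 10 had the same layout, with all arrays moving one way in WT and the other way in KO. These were Mylip (0.49), Oas1c (0.58), Il1b (0.81), Mrnip (0.84) and Nudt1 (0.44) above 0, and Ahsa2 (-0.71), Gabrr2 (-1.11), Slc25a45 (-1.11), Chordc1 (-0.55) and Sin3b (-0.39) below 0. Each was tested in the fit over all genes, and none passed the adjusted test (adjusted p between 0.722 and 0.836). The 24 were chosen by the interaction, which favours this layout, and its share over all genes was not counted. The count therefore describes the 24 and tests nothing. With the mean of its probe sets the interaction of Sin3b was 0.118, of opposite sign.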

How the results depend on the processing

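The count of 0 genes for the interaction was the same in all 26 alternatives run for it, and the count of 0 for the diet in KO stayed 0 with any 1 array left out. The 758 genes with an unadjusted interaction p under 0.05 became 1451 when every named probe set was tested, 1769 over every probe set, 1196 with array weights and 1146 without the arrays WT high-fat 2 and KO high-fat 3, and 580 to 1080 with 1 array left out. The 12 genes called in WT became 22 with a variance trend, 24 with a robust trend, 1 with only the 6 arrays compared, 0 with the replicate block shared by all groups or set within each genotype, 0 without both of those arrays, and 0 to 11 with 1 array left out. With the block in KO alone, the genotype whose same-numbered arrays deviated together, the interaction gave 0 and the diet in WT 13 genes. For KO against WT on the normal diet 128 became 69 with the mean of probe sets, 546 over named and 476 over all probe sets, 238 after median centring, 338 with a trend, 336 with a robust trend, 1175 with array weights, 9 with the shared replicate block, 477 without both arrays, 6 with only the 6 arrays compared, and 2 to 223 with 1 array left out. On the high-fat diet 4 became 81 and 96 over named and all probe sets, 8 after median centring, 64 with a trend, 63 with a robust trend, 7 with array weights, 2 with the shared block, 0 with only the 6 arrays compared, and 0 to 272 with 1 array left out. Array weights, trends and probe set choices thus moved the genotype counts, and the cause was not tested. The interaction of Sin3b turned to 0.118 with the mean of its probe sets; the other 571 of 572 values of the 24 leading genes kept their sign and stayed past no adjusted threshold. Of 936 list medians under alternatives, 900 shifted by less than the spread of the list and 36 moved further. That spread is the SD of the list score between arrays of a group, pooled over the groups. A list with scattered arrays could thus shift far and still be counted among the 900. The share above 0 among genes with an unadjusted p was 60.2%, 54% after cyclic loess and 50.7% after median centring; over all genes it was 53.8%, 49% and 48%. Alternatives chosen after seeing the data were the removal of both arrays, every probe set, and the block in KO alone.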
